A study of Mus musculus with 6 samples.

Results

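The Kruppel-like factors are zinc finger transcription factors. The 10 genes described here are Klf3, Klf4, Klf5, Klf6, Klf7, Klf9, Klf10, Klf11, Klf12 and Klf13, out of 36814 genes in the deposited table of 6 libraries. Klf3 was chosen by its RPKM values, which were higher in 1 of the 2 groups compared, so its difference is given as a description with no test. The other 9 were chosen as regulators of axon growth and relatives of them. Each symbol had 1 row in the table, and all 10 identifiers carried the same symbol in the reference name table. The remaining 7 family members in the table, Klf1, Klf2, Klf8, Klf14, Klf15, Klf16 and Klf17, are given beside them.

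The samples were pools of 25 to 30 proprioceptors, the sensory neurons that report muscle length and force, from mice of the Pv::YFP reporter line. A retrograde tracer, ctb-555, was injected into a muscle at postnatal day 0, and neurons carrying it were isolated manually at postnatal day 1. The TA group, 3 libraries, held neurons labelled from tibialis anterior, which flexes the ankle, and the GS group, 3 libraries, neurons labelled from gastrocnemius, which extends it. No other genotype or treatment is named, and both groups carried the same reporter, which marks neurons that use the parvalbumin promoter. The replicates are labelled as biological, but nothing given here says whether they came from different animals, so p-values measure the spread between these pools.

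Proteins of this family bind GC-rich DNA and CACCC boxes through zinc fingers at their C-terminal end, and differ in the part that activates or represses transcription. Klf6 and Klf7 are known to promote axon growth in central neurons, and Klf4 and Klf9 to restrain it. Klf3, Klf8 and Klf12 repress through the co-repressor CtBP, while Klf9, Klf10, Klf11, Klf13 and Klf16 bind the co-repressor Sin3A.

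Values are RPKM, reads per kilobase of gene and per 1000000 reads of a library total. Net reads per library, the deposited read numbers summed over genes, ranged from 7038296 to 21125960, with TA replicate 3 the highest. Because the table gives 0 for all 38 mitochondrial genes throughout, a value of 0 is described only as listed at 0. GS replicate 2 stood apart, with a mean correlation across genes of 0.728 to the rest, where each of the other 5 libraries had 0.780 to 0.834. The 8 proprioceptor markers listed were all above 0 in every library and summed to between 658 and 778 RPKM, although 3 of the 8 separated the muscles, as given beside Klf3. Skeletal muscle markers, 6 genes, had a sum of 208 RPKM in TA replicate 3 and of at most 5.12 RPKM elsewhere. The first number of each series below is TA replicate 1, and the order is then TA replicates 2 and 3 and GS replicates 1, 2 and 3.

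Klf7 was the most abundant family member in all 6 libraries. Its levels were 39.7, 31.8 and 36.2 RPKM in TA and 41.7, 42.8 and 39.7 in GS. Klf6 came next by mean level, at 12.2 ± 7.27 RPKM over the 6 libraries (SD) against 38.6 ± 4.03 RPKM for Klf7, and the ranges of these 2 genes did not overlap. The order then ran Klf3, Klf9, Klf13, Klf12, Klf10 and Klf11, from 7.55 ± 9.79 RPKM for Klf3 to 0.824 ± 0.648 RPKM for Klf11. Every neighbouring pair in that order from Klf6 down had overlapping ranges. Klf5 and Klf4 lay lowest, with at most 0.352 and 0.0198 RPKM in any library.

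**Figure D1:**
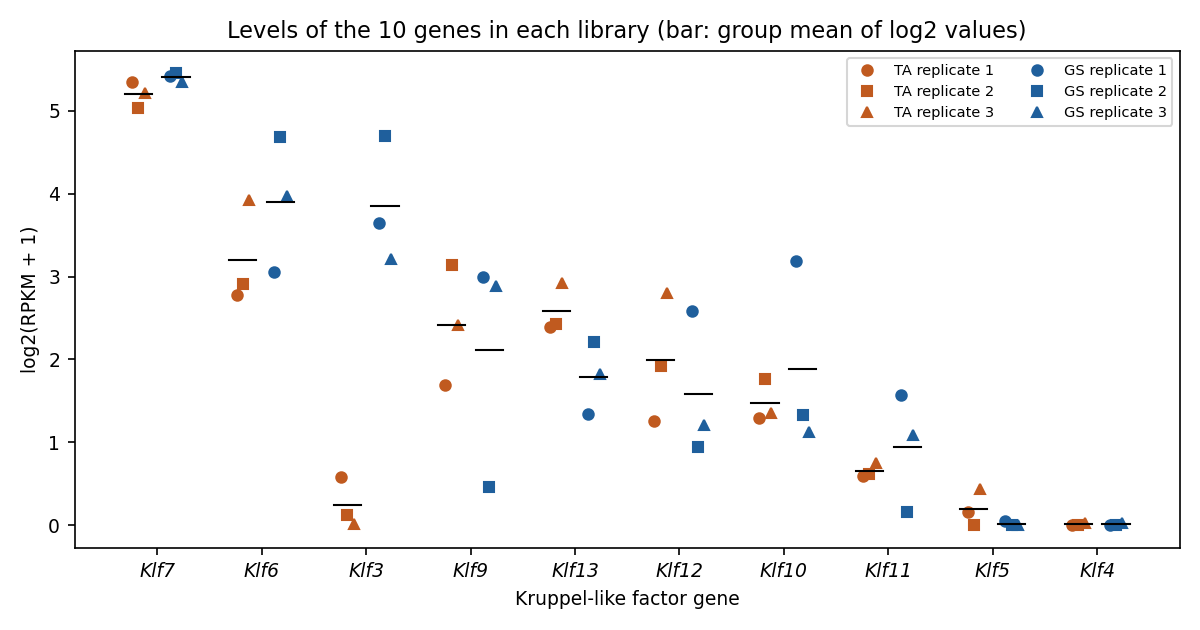
Each point is 1 library's level of 1 gene on the log2(RPKM + 1) scale, with TA libraries in orange, GS libraries in blue, replicates by marker shape and the mean of the log2 values of each group as a bar. Klf7 sits highest in every library, and Klf3 lies between 0.0116 and 0.501 RPKM in TA and between 8.24 and 24.9 in GS.

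Klf3 encodes a repressor also known as basic Kruppel-like factor. It was at 0.501, 0.0872 and 0.0116 RPKM in TA and at 11.6, 24.9 and 8.24 in GS. All 3 GS libraries were above all 3 TA libraries, and the highest TA value was that of TA replicate 1. Over all 10828 genes tested, 3.48% had GS values that all lay above the TA values, but Klf3 was chosen for this pattern and nothing is read from that share. The gene, ENSMUSG00000029178, spans chr5:65194628-65221368 on the plus strand of mm9.

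The low TA values of Klf3 rested on 20, 3 and 1 net reads, and the GS values on 504, 1283 and 364. Exact Poisson 95% intervals, which cover counting error only, were 0.306 to 0.774, 0.0180 to 0.255 and 0.000294 to 0.0647 RPKM in TA. In GS they were 10.6 to 12.6, 23.5 to 26.3 and 7.42 to 9.13 RPKM. Differences among the 3 TA libraries and among the 3 GS libraries were therefore larger than counting error in part, since the intervals of TA replicates 1 and 3 and of GS replicates 2 and 3 do not overlap.

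The ratio of mean RPKM, GS over TA, was 74.5 for Klf3. It depended on single libraries, at 302 without TA replicate 1 and 49.5 without GS replicate 2, and from 50.6 to 91.1 without any of the other 4. Pooling net reads over each group and dividing by the totals gave a ratio of 103, with an exact 95% interval of 69.2 to 161 for counting error only. The authors' deposited table for GS listed Klf3 with a signal of 20.21 in TA and 2554 in GS, a ratio of 126.4. On the log2(RPKM + 1) scale the difference TA minus GS was -3.61, and it was -3.19 without GS replicate 2. A pseudocount of 0.1 gave -5.85, since a smaller pseudocount shrinks low levels less.

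In pools, fewer cells carrying a transcript and less transcript per cell cannot be told apart. Glial markers, 6 genes, summed to 33.5, 86.4 and 42.5 RPKM in TA and 60.8, 110 and 61.1 in GS, with none of the 6 at 0 in any library. TA replicate 2, with more glial signal than GS replicates 1 and 3, had 0.0872 RPKM of Klf3. Of the 6 markers 5 overlapped between the muscles and 1 was higher in all GS libraries than in all TA libraries. Over all genes tested, 3.48% had that order. The part of glial transcripts in the Klf3 values was not tested. Red blood cell markers, 6 genes, had a sum of 32.3 RPKM in TA replicate 3, 16.9 RPKM in GS replicate 2 and at most 2.87 RPKM elsewhere. In the remaining 4 libraries Klf3 was at 0.501 and 0.0872 RPKM in TA and at 11.6 and 8.24 RPKM in GS. Of the 6 red blood cell markers 2 were higher in all TA libraries, where 13.1% of all genes tested were, and 4 overlapped. The part of red blood cell transcripts in the Klf3 values was not tested. Nociceptor markers, 6 genes, summed to 76.9, 38.9 and 79.7 RPKM in TA and 73.1, 168 and 27.8 in GS. The sums overlapped, and most of them came from Calca and Tac1. Of the 6 nociceptor markers 1 was higher in all GS libraries, where 3.48% of all genes tested were, and 5 overlapped between the muscles. The other, P2rx3, an ATP-gated channel, was at 5.0, 3.73 and 3.39 RPKM in TA and 17.2, 22.8 and 9.0 in GS, with a limma adjusted p of 0.205. Its libraries stood in the same order as those of Klf3 in each muscle. The part of nociceptor transcripts in the Klf3 values was not tested.

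Of the 8 proprioceptor markers 5 overlapped between the muscles, 2 were higher in all GS libraries and 1 was higher in all TA libraries. Over all genes tested, 3.48% and 13.1% were separated in those directions. Spp1, the secreted protein osteopontin, was at 2.78, 6.31 and 6.97 RPKM in TA and 59.0, 72.0 and 38.5 in GS, and passed the test towards GS (log2 difference of -3.21 ± 0.41 (SE), limma adjusted p of 0.0150). The call was lost without TA replicate 1 (0.0845), TA replicate 2 (0.0854), TA replicate 3 (0.0687) or GS replicate 1 (0.0577), in adjusted p, and with no filter on low values (0.159). It was also lost with GS replicate 2 and TA replicate 3 left out together, where no gene was called towards GS. Etv1, a transcription factor that proprioceptors need, was at 217, 264 and 202 RPKM in TA and 313, 321 and 323 in GS (limma adjusted p of 0.524). Pvalb, the calcium-binding protein parvalbumin, ran the other way, at 69.0, 93.5 and 47.8 RPKM in TA and 4.26, 10.4 and 31.3 in GS (limma adjusted p of 0.168, and 0.0472 without GS replicate 3). The even sum over the 8 markers rested largely on Etv1 and Nefh. The part of these differences in the Klf3 values was not tested.

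The sequence before the start of Klf3 is shown because the gene is the family member with the wide range of levels, and that of Klf7 because Klf7 is the even one. Both windows are the 250 bases before the RefSeq start, from the GRCm38.p6 table, 5′ to 3′ on the strand of the gene, with the CACCC box and its reverse complement GGGTG in capitals. They lie at chr5:64803271-64803520, plus strand, and chr1:64121390-64121639, minus strand.
Klf3: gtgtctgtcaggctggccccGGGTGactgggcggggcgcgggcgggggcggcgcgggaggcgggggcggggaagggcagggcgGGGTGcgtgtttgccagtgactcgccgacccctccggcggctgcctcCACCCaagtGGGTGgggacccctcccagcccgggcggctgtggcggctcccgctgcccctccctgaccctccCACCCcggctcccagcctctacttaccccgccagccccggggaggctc
Klf7: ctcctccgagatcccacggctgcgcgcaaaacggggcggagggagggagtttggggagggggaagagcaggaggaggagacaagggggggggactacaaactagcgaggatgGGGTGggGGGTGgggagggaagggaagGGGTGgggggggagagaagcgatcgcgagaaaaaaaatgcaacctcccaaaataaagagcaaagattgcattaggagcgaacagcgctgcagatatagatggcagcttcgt
The Klf3 window held 5 boxes, 2 read as CACCC and 3 as GGGTG, and the Klf7 window held 3, all read as GGGTG. Matches were counted on both strands and could overlap. Of 32851 promoter windows of the same length, 52% held at least 1 box, 6.92% held 3 or more and 0.667% held 5 or more. The Klf3 window was 78.4% G or C and the Klf7 window 59.2%, against a median of 52.4% over all windows. Of the 10 genes, 8 had an entry, and 5 of those held a box: Klf3, Klf7, Klf9, Klf12 and Klf13. Klf5 and Klf10 had no entry.

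The 5 genes whose log2(RPKM + 1) values over the 6 libraries were most like those of Klf3 were Stc1, Cdh7, Kcnip4, Doc2b and Sorcs1, out of 10821 genes ranked by Pearson correlation. The correlations were 0.996, 0.991, 0.991, 0.990 and 0.984 over 6 libraries, and are descriptions, since the 6 points form the 2 groups and share the same libraries. Stc1, the secreted hormone stanniocalcin, was at 2.70, 1.77 and 1.13 RPKM in TA and 26.3, 39.5 and 16.0 in GS. Like Klf3 it was highest in TA replicate 1 among the TA libraries and in GS replicate 2 among the GS libraries. Cdh7, a type II cadherin, was at 2.66, 1.59 and 1.39 RPKM in TA and 8.28, 11.8 and 8.10 in GS. Sorcs1, a sorting receptor, was at 8.71, 8.01 and 7.15 RPKM in TA and 17.2, 29.5 and 15.9 in GS. Kcnip4, which binds potassium channels, ranged from 3.48 to 5.40 RPKM in TA and from 17.2 to 24.7 in GS. Doc2b, a calcium sensor of vesicle release, ranged from 7.60 to 12.6 RPKM in GS, had 0.631 RPKM in TA replicate 1 and 0.261 RPKM in TA replicate 2 and was listed at 0 in TA replicate 3.

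**Figure D2:**
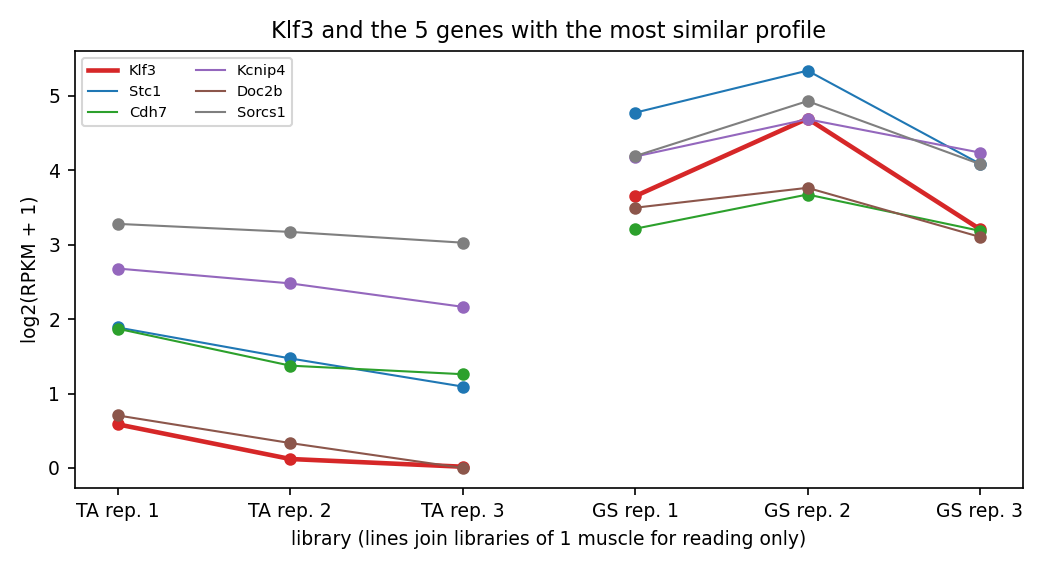
Levels of Klf3 and the 5 genes with the most similar profile, on the log2(RPKM + 1) scale, in each of the 6 libraries, where lines join libraries of the same muscle only to guide the eye. All 6 genes are highest in GS replicate 2, where Klf3 is at 24.9 RPKM.

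Klf7 was the member with the smallest spread. Its coefficient of variation over the 6 libraries was 10.4%, against a median of 33.5% over 1323 other tested genes within 2-fold of its mean, and 0.680% of those genes had a smaller one. Klf7 averaged 35.9 ± 3.97 RPKM in TA and 41.4 ± 1.57 in GS (SD, n = 3). TA replicate 1 and GS replicate 3 were both at 39.7 RPKM, so the groups overlapped. The log2 difference was -0.20 (95% interval -0.85 to 0.45), with a limma adjusted p of 0.839.

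The Klf7 gene, ENSMUSG00000025959, spans chr1:64076021-64168856 on the minus strand of mm9. A second gene model, AL645646.1, lies within it on the other strand, from 64076037 to 64079501. It held 1385, 786 and 1775 net reads in TA and 703, 2555 and 1234 in GS, which came to between 12.4% and 37.2% of the Klf7 reads. Reads of the 2 models cannot be told apart, since the use of strand was not given in the sources used here. Added up, the reads of both models were 414, 318 and 348 per 1000000 reads in TA and 381, 477 and 396 in GS, and the groups still overlapped. The Pearson correlation with Klf7 was highest for Peci, Taf9, A730011L01Rik, Cntln and Zfp35, at 0.964 to 0.978 over 6 libraries. Taf9, a subunit of the general transcription factor TFIID, was at 17.8, 6.76 and 12.4 RPKM in TA and 19.5, 21.4 and 13.9 in GS. All 5 were lowest in TA replicate 2, as Klf7 was.

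Klf6, which is also induced by injury and stress in many tissues, was at 5.84, 6.52 and 14.2 RPKM in TA and 7.28, 24.8 and 14.6 in GS. TA replicate 3 and GS replicates 2 and 3 were high, and the groups overlapped. The gene, ENSMUSG00000000078, spans chr13:5860735-5869639 on the plus strand of mm9. Its log2 difference was -0.70 ± 0.50 (SE), with a 95% interval of -1.80 to 0.41 and a limma adjusted p of 0.662. With 1 library left out at a time the difference ranged from -1.12 to -0.31.

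Of the 9 members other than Klf3, 6 passed the filter of a mean of at least 1 RPKM. With limma 0 of these 6 had an adjusted p under 0.05 in either direction, where 0.305% of all 10828 genes tested did (0.175% towards TA and 0.129% towards GS), and 0 had an unadjusted p under 0.05, where 10.4% of all genes did. The intervals of the differences were wide, so these p-values do not show that levels were equal. The median log2 difference of the 6 was 0.05, and that of all genes tested was 0.24 towards TA. Relative to that shift the differences were -0.94 for Klf6, -0.65 for Klf10, -0.44 for Klf7, 0.07 for Klf9, 0.18 for Klf12 and 0.55 for Klf13.

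**Figure D3:**
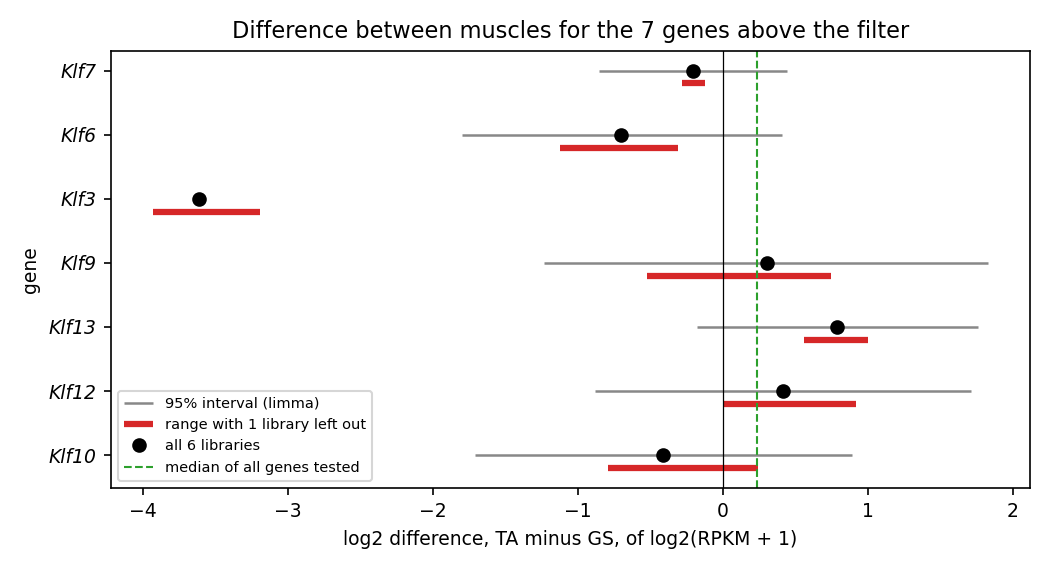
Points give the difference TA minus GS in log2(RPKM + 1) for the 7 members above the filter, grey lines the 95% interval from limma, red bars the range with 1 library left out, and the dashed line the median of all genes tested, 0.24. Klf3 is drawn with no interval because it was chosen for this difference, and the intervals of the other 6 all include 0.

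Klf13, which binds Sin3A and is known from lymphocytes and the heart, was the only one of these 6 whose groups did not overlap. It was at 4.23, 4.40 and 6.57 RPKM in TA and 1.53, 3.62 and 2.54 in GS, or 5.07 ± 1.30 against 2.56 ± 1.05 RPKM (SD, n = 3). Over all genes tested, 13.1% had TA values that all lay above the GS values, so 1 in 6 is near the background. The log2 difference was 0.79 ± 0.44 (SE), with a 95% interval of -0.18 to 1.76 and a limma adjusted p of 0.577. TA replicate 3, the highest, also held the skeletal muscle signal given above, and the difference without that library was 0.62. The gene, ENSMUSG00000052040, spans chr7:71031237-71083801 on the minus strand of mm9.

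Klf9, which is induced by thyroid hormone and glucocorticoids, was at 2.23, 7.80 and 4.35 RPKM in TA and 6.96, 0.373 and 6.38 in GS. GS replicate 2 was lowest by a wide margin, with 24 net reads against 111 to 468 in the other libraries. Its Poisson 95% interval of 0.239 to 0.555 RPKM does not reach the next library's, which starts at 1.83 RPKM. The log2 difference was 0.30 (95% interval -1.23 to 1.83, limma adjusted p of 0.903), and it was -0.52 without GS replicate 2 and -0.06 without TA replicate 2. Quantile normalization also turned its sign, to -0.11, so no direction is given for Klf9.

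Klf10 and Klf11 are known as early genes of TGF-beta signalling. Klf10 was at 1.46, 2.38 and 1.56 RPKM in TA and 8.12, 1.52 and 1.18 in GS. GS replicate 1 was high and the other 5 libraries lay close together, so the difference of -0.41 (limma adjusted p of 0.837) became 0.24 without GS replicate 1. GS replicate 1 also had the highest sum of 6 immediate early genes, 43.5 RPKM, against 11.4 to 31.8 RPKM in the other libraries. Among those genes Fos was at 12.5 RPKM in GS replicate 1 and at 1.96 to 6.88 RPKM elsewhere, and Dusp1 at 19 RPKM and at 1.12 to 14.3 RPKM elsewhere. Egr1 was also highest there, at 10.6 RPKM. The other 3 of the 6 were not: Fosb was at 0.831 RPKM in GS replicate 1 and 5.95 RPKM in TA replicate 2, Ier2 at 0.551 RPKM and 1.65 RPKM in TA replicate 3, and Junb, at 0.0664 RPKM, was lowest in GS replicate 1. The part of such a response in the Klf10 value was not tested.

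Klf11 lay below the filter, at 0.511, 0.539 and 0.681 RPKM in TA and 1.97, 0.12 and 1.12 in GS. The 3 TA libraries lay between the lowest and the highest GS library. GS replicate 1 was again the highest, and GS replicate 2, which was low for Klf9, the lowest. Klf12, a repressor of the AP-2alpha gene, was at 1.38, 2.80 and 5.98 RPKM in TA and 5.0, 0.921 and 1.31 in GS. TA replicate 3 and GS replicate 1 were high and the groups overlapped. Its log2 difference was 0.42 (95% interval -0.88 to 1.71, limma adjusted p of 0.835), and it was 0.01 without TA replicate 3.

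Klf4, a pluripotency factor that restrains axon growth, was near the limit of detection in these neurons. It rested on 2 net reads in TA replicate 3 and 1 in GS replicate 3, at 0.0198 and 0.0193 RPKM, and was listed at 0 in the other 4 libraries. Klf5, known from epithelia and smooth muscle, had 0.114 RPKM in TA replicate 1, 0.352 RPKM in TA replicate 3 and 0.0348 RPKM in GS replicate 1, and was listed at 0 in the other 3. The highest Klf5 value, 20 net reads, came from TA replicate 3, where connective tissue markers, 6 genes, summed to 27.8 RPKM against 0.104 to 6.16 RPKM elsewhere and muscle markers to 208 RPKM. Their part in the Klf5 value was not tested.

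The family members outside the 10 were mostly low. Klf8, a CtBP-binding repressor, was the only one above the filter, at 2.82, 2.47 and 1.95 RPKM in TA and 1.26, 4.11 and 2.74 in GS. Klf8 is a gene that Klf3 is known to repress, and its log2 difference was -0.05 (95% interval -1.08 to 0.99, limma adjusted p of 0.979). Klf16 was at 1.96, 1.32 and 0.264 RPKM in TA and 0.204 and 1.52 in GS replicates 1 and 3, and was listed at 0 in GS replicate 2. Klf2, an endothelial factor, was at 0.709 RPKM in TA replicate 1, 0.631 RPKM in GS replicate 2 and at most 0.0649 RPKM elsewhere. Of the 6 endothelial markers Kdr, Tie1 and Cldn5 were listed at 0 in every library. Pecam1 was highest in the same libraries as Klf2, at 0.319 and 0.141 RPKM, and reached 0.123 RPKM elsewhere. Cdh5 was at 0.837 RPKM in TA replicate 3 only, and Tek reached at most 0.125 RPKM, in TA replicate 1. The part of endothelial transcripts in the Klf2 values was not tested. Klf15 was at 0.0518, 0.361 and 0.204 RPKM in TA, from 2, 12 and 17 net reads, and was listed at 0 in the 3 GS libraries. Klf14 had 2 net reads in TA replicate 3, and Klf1, the erythroid member, and Klf17 were listed at 0 in all 6.

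Summed over the 17 genes, the family came to 61.5, 60.5 and 72.4 RPKM in TA and 85.6, 104 and 79.4 in GS. Klf7 made up 64.6%, 52.6% and 50.0% of that sum in TA and 48.6%, 41.3% and 50.0% in GS. Klf3 made up 0.815%, 0.144% and 0.0160% in TA and 13.5%, 24.0% and 10.4% in GS. Without Klf3 the sums were 61.0, 60.4 and 72.4 RPKM in TA and 74.1, 78.8 and 71.2 in GS, so TA replicate 3 then lay above GS replicate 3. By RPKM, Klf3 ranked just after Klf7 in GS replicates 1 and 2, with Klf6 close behind it in GS replicate 2, and after Klf7 and Klf6 in GS replicate 3.

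**Figure D4:**
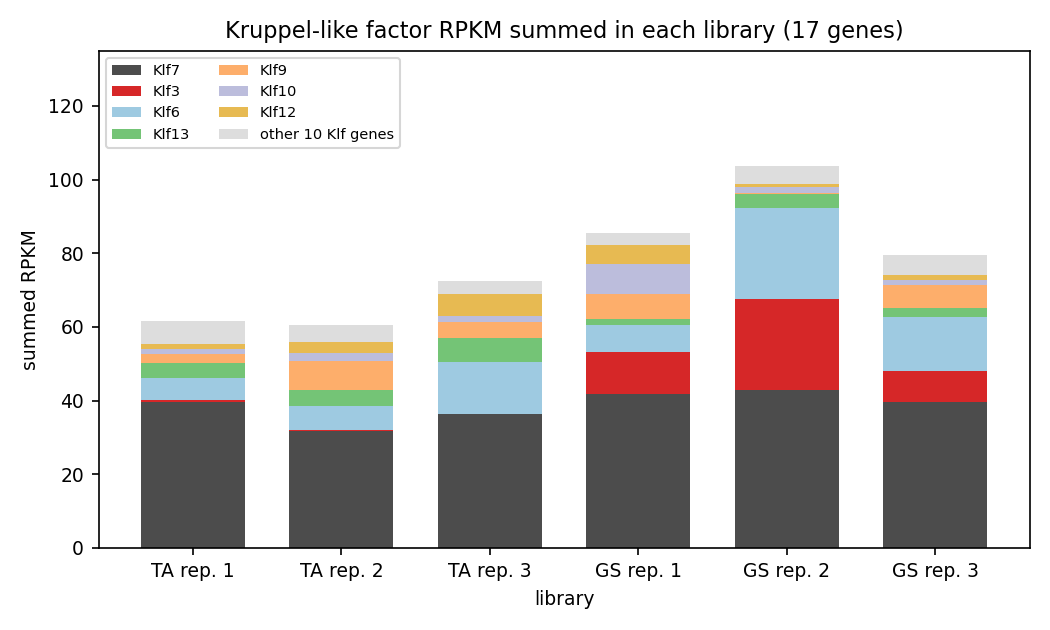
Stacked bars give the summed RPKM of the 17 Kruppel-like factor genes in each library, with 7 genes in colours and the other 10 in light grey. The Klf3 segment is 8.24 to 24.9 RPKM high in the GS bars and at most 0.501 RPKM in the TA bars, while the Klf7 segment is between 31.8 and 42.8 RPKM in all 6.

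Genes that work with the family were counted from 8 lists, of which 34 genes in all were tested. With limma 0 of the 34 were called at an adjusted p under 0.05 in either direction, and 2 had an unadjusted p under 0.05, Cdkn1a and Jun. Over all genes, 8.30% had an unadjusted p under 0.05 towards TA and 2.12% towards GS.

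Most co-repressors and co-activators passed the filter. Of 12 listed 10 were tested, with a median log2 difference of 0.20, near the 0.24 of all genes. Ctbp2, at 0.495, 0.830 and 0.605 RPKM in TA and 0.453, 0.0163 and 0.152 in GS, lay below the filter. So did Hdac1, at 2.64, 1.23 and 0.132 RPKM in TA and at most 0.515 RPKM in GS. Kat2a, a histone acetyltransferase, was at 6.84, 12.1 and 14.5 RPKM in TA and 10.8, 0.0852 and 7.09 in GS, and its low value in GS replicate 2 is in the same library as that of Klf9. Ep300, another acetyltransferase, was at 4.26 ± 1.63 RPKM in TA and 2.67 ± 0.409 in GS (SD, n = 3), with a limma adjusted p of 0.749. Ctbp1, added to these after its values were seen, was at 19.1, 10.1 and 16.9 RPKM in TA and 8.03, 14.6 and 11.9 in GS.

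The Sp factors bind the same GC-rich DNA as the Kruppel-like factors. Of 9 listed 4 were tested, with a median log2 difference of 0.21. Sp3 was at 2.52, 1.22 and 0.848 RPKM in TA and 4.67, 3.26 and 3.32 in GS, with no overlap, where 3.48% of all genes had that order. Its log2 difference was -0.95 (limma adjusted p of 0.513). Sp2 was at 4.30, 1.47 and 0.879 RPKM in TA and 1.32, 0.0148 and 0.104 in GS, with a limma adjusted p of 0.560.

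None of the tested genes upstream of Klf9, Klf10 and Klf11 passed the test. Of the 10 TGF-beta genes 5 were tested, with a median log2 difference of 0.33, and Smad2, which carries the signal to the nucleus, was at 11.6 ± 7.79 RPKM in TA and 15.1 ± 2.93 in GS (SD, n = 3, limma adjusted p of 0.738). Tgfbr3, a co-receptor, was at 2.65, 0.824 and 0.769 RPKM in TA and 0.238, 1.94 and 0.334 in GS. Of 4 hormone receptors only Thra, the thyroid hormone receptor alpha, was tested, at 32.5, 18.7 and 30.9 RPKM in TA and 12.5, 26.1 and 17.5 in GS, with a limma adjusted p of 0.660.

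All 5 genes linked to Klf7 were tested. Cdkn1a, the cell cycle inhibitor p21, was at 185, 164 and 91.2 RPKM in TA and 39.6, 37.4 and 47.1 in GS. The 3 TA libraries were all above the 3 GS libraries, an order that 13.1% of all genes tested had. Its log2 difference was 1.75 ± 0.33 (SE), with a limma unadjusted p of 0.000316 and a limma adjusted p of 0.0762. Gap43, a growth cone protein, was at 255, 254 and 258 RPKM in TA and 138, 278 and 189 in GS, with a limma adjusted p of 0.675.

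Other intrinsic regulators of axon growth formed a list of 10, of which 8 were tested, with a median log2 difference of 0.22. Jun, a transcription factor of the nerve injury response, was at 12.1, 14.1 and 18 RPKM in TA and 37.1, 28.8 and 26.0 in GS. All GS libraries lay above all TA libraries, an order that 3.48% of all genes tested had, and the log2 difference was -1.01 ± 0.34 (SE), with a limma adjusted p of 0.362. Atf3, another injury factor, was at 2.11, 0.804 and 2.43 RPKM in TA and 0.604, 0.332 and 1.07 in GS, with a limma adjusted p of 0.657. Stat3, which signals from cytokine receptors, was the other of the 8 with all GS libraries above all TA libraries, at 14.2, 14.1 and 15.2 RPKM in TA and 16.0, 16.2 and 19.9 in GS (limma adjusted p of 0.832). Among genes reported as repressed by Klf3, Klf8 was the only one above the filter. Lgals3, the lectin galectin-3, had 0.0353 RPKM in TA replicate 1 and 0.588 RPKM in TA replicate 3 and was listed at 0 in the other 4 libraries. The reads numbered 1 and 36, and the 36 came from TA replicate 3. Immune cell markers, 5 genes, summed to 2.40 RPKM there against at most 0.249 RPKM elsewhere. Most of that sum was Cd68, a macrophage marker at 1.91 RPKM there and listed at 0 in the other 5 libraries. Cx3cr1 and Ptprc were also above 0 there only, at lower levels. Csf1r was instead highest in GS replicate 3, at 0.249 RPKM, and Aif1 was listed at 0 in every library. TA replicate 3 also held the muscle and connective tissue signal, and the part of such transcripts in the Lgals3 value was not tested. Fam132a, the hormone adipolin, was at 3.40, 0.445 and 1.29 RPKM in TA and 0.0878, 0.705 and 0.0433 in GS. It was not tested, its net reads numbered 71, 8 and 58 in TA and 2, 19 and 1 in GS, and the groups overlapped.

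In the authors' deposited tables Klf3 was the only 1 of the 17 family genes listed, among 334 genes higher in GS (0.907% of the table) and 395 higher in TA (1.07%). Klf3 was chosen for its higher GS values in this same series, so its listing adds no separate support.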

How the data were processed

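The report uses 1 table of the whole series and the authors' 2 lists of genes higher in a muscle. Per the submitters' processing notes, reads were aligned with Bowtie 0.12.9 to mm9 and DESeq was used. Per the file headers the deposited table gives reads and RPKM per gene and library. Both have values below 0 in 683 genes, with no origin stated. The deposited lists give, per the file headers, for each muscle a summed read signal and an RPKM, and for each gene a GS to TA ratio (fold) and p-values. Per the labels' protocols, RNA was amplified into cDNA before the libraries were made, and no molecular identifiers are named.

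Genes with a value below 0 were left out, 1 row per symbol was kept, and a filter of 1 on the mean RPKM left 10828 genes. Their log2(RPKM + 1) values were fitted in limma 3.58.1 (R 4.3.3) by muscle alone, with a mean trend, Benjamini-Hochberg adjustment and a threshold of 0.05. A count model was not used, since the read columns hold values below 0. The steps were tested on simulated data, whose changes were larger than the differences of the members other than Klf3. The simulation held no outlying library, so differences of the size of those members were not covered by it. Named genes were all family members, the 2 genes of each partner list with the smallest unadjusted p, the 5 genes most like Klf3 and Klf7, and the 2 most abundant markers per cell type list, with other genes chosen after their values were seen. Some genes of the lists are not reported here by name. The members and lists were chosen with earlier results of these data known. Table coordinates are mm9, with the end as the last base, since all 728 genes compared end 1 base earlier in the lists than in the table. Alternatives covered the pseudocount, filter, scaling, moderation, replicate block and each library left out.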

Additional observations from a re-analysis of the deposited data

How the results depend on the processing

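None of the members other than Klf3 was called by limma under any of the 16 alternatives run for the counts, and none of the partner genes either. At an unadjusted p under 0.05 there was 1 member without GS replicate 1 (Klf6) and 1 without GS replicate 2 (Klf13), and 0 otherwise. Klf3, Klf6, Klf7 and Klf13 kept their sign under every alternative that could be computed, and Klf3 ranged from -5.85 (pseudocount of 0.1) to -3.08. The mean of at least 5 RPKM left only Klf3, Klf6 and Klf7 among the members. Leaving out GS replicate 2 and TA replicate 3 together was chosen after seeing the data.

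Signs turned, and the cause was not tested, in these cases. Klf9 was -0.11 under quantile normalization and -0.53 without both doubted libraries, where Klf12 was -0.31, Klf8 0.32 and Apoe 0.083. Fos was -0.087 with median centring and -0.070 with quantile normalization. With 1 library left out, values ranged from -0.52 (without GS replicate 2) to 0.75 for Klf9, from -0.79 to 0.24 (without GS replicate 1) for Klf10, from -0.37 to 0.22 (without GS replicate 2) for Klf8 and from -0.36 to 0.73 for Fos. For markers of other cells and of neurons they ranged from -1.83 to 1.70 for Calca, -1.44 to 0.31 for Dcn, -0.82 to 0.073 for Fabp7, -1.13 to 1.98 for Acta1, -0.11 to 0.021 for Nefh, -1.57 to 0.43 for Hbb-b2 and -0.21 to 1.40 for Dusp1.

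Over the whole table limma called 19 genes towards TA and 14 towards GS. These became 7 and 6 with a pseudocount of 0.1, 9 and 8 at a mean of at least 5 RPKM, 0 and 0 with no filter (1501 genes at an unadjusted p under 0.05), 11 and 17 with median centring, and 1 and 0 without both doubted libraries (922 at an unadjusted p under 0.05). With 1 library left out they ranged from 1 to 19 and from 1 to 10. With the replicate number as a block they were 8 and 8, and no member was called. The numbers share no stated animal or batch: deviations of same-numbered libraries correlated at -0.07, -0.02 and -0.14, and 0 of 6 libraries correlated best with their own number. With 3 pools per muscle, differences of the size seen in Klf6 and Klf13 could not be resolved from 0.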
